A study of Mus musculus with 32 samples.

Results

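Resident tissue macrophage receptors were followed here as 10 genes chosen by name: Lyve1, Timd4, Folr2, Cd163, Cbr2, Mrc1, F13a1, Cd209b, Cd209f and Vsig4. Most encode surface receptors, and Cbr2 and F13a1 encode enzymes that mark the same cells. They are 10 of the 24421 genes in the count tables, and all 10 were among the 13453 genes that passed the filter on low counts. The RNA came in bulk from adipose tissue macrophages of C57BL/6J mice, sorted by flow cytometry out of epididymal fat. KO mice carried a myeloid-specific knockout of A20, the product of Tnfaip3, which restrains NF-kB signalling, and WT mice were wild type. Mice of both genotypes ate a high-fat diet (HFD) for 12 weeks or stayed on standard diet (SD). From each mouse group a CD206+ population and a CD11c+ population (low for CD206 and high for CD11c) were taken, which made 8 groups of 4 libraries, 32 in all. The sources used here give neither the driver of the deletion nor the age of the mice nor the make-up of the diets. The study's question is whether myeloid A20 matters in obesity brought on by diet.

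Resident macrophages of fat are long-lived cells, many of them seeded before birth, that lie along vessels and between fat cells. They are known for taking up dying cells, haemoglobin, glycoproteins and opsonised particles, and their identity rests on surface receptors for these cargoes. In mouse fat, CD206+ macrophages hold most of the resident cells, whereas CD11c+ macrophages gather in obesity and derive largely from blood monocytes. A sort on CD206 or CD11c does not by itself separate resident from recruited cells.

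Gene counts summed to between 17619638 and 23832924 per library. Tnfaip3 lay between 167 and 474 CPM (counts per 1000000 gene counts, scaled by TMM) in the 16 KO libraries and between 486 and 1647 CPM in the 16 WT libraries, so the libraries followed their genotype labels. Itgax, which encodes CD11c, lay between 1.26 and 50.3 CPM in CD206+ and between 146 and 379 CPM in CD11c+ libraries. On the third principal component of all genes, which held 12% of the variance, the 8 libraries of WT mice on SD lay away from the other 24, at -59 to -38.7 against 0.144 to 40.4. Every comparison with a WT SD group below carries this. Whether each of the 4 libraries of a group is another mouse is not in the labels, so the p-values speak only of the spread among these samples, which may be technical. Changes are log2 fold changes with their SE from edgeR's quasi-likelihood test over all 13453 genes. A gene was called changed at a Benjamini-Hochberg adjusted p under 0.05. In bulk samples, fewer cells of a type and less RNA per cell cannot be told apart.

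On the GRCm38 build, Cd209b (chr8:3917655-3926844) and Cd209f (chr8:4102787-4105835) lie in a cluster of related lectin genes. Timd4 (chr11:46810800-46844332) and Cbr2 (chr11:120729489-120732114) share a chromosome, as do Lyve1 (chr7:110850607-110863239) and Folr2 (chr7:101839988-101857194). Cd163 lies at chr6:124304656-124330527, Mrc1 at chr2:14229392-14332057, F13a1 at chr13:36867178-37050244 and Vsig4 at chrX:96247203-96293438. Counts cover whole genes, all of them protein-coding. Of the 2168 stretches of 50 bases in annotated Cd209f transcripts, 646 (29.8%) also occur in those of Cd209g, so reads of these genes can be split or lost by the counting. Cd209b shares none with another Cd209 gene. Folr2 and F13a1 overlap antisense genes, and the sources used here give no strand setting for the counting, so their counts carry that doubt. A microRNA gene, Mir511, lies within Mrc1.

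The 250 bases before the start sites of 5 members are shown, because these were the genes called between genotypes in both populations on one diet with no overlap of KO and WT libraries: Timd4 and Cbr2 on HFD, Cd163 and Cd209b on SD, and F13a1 on both diets. Sequences are from RefSeq on GRCm38.p6, written 5′ to 3′ on the strand of the gene. Capitals mark matches, on either strand, to the core of the myeloid factor PU.1 (GAGGAA), the core shared by sites of the MAF family (TGCTGA), a STAT6 site (TTC and GAA with 4 bases of any kind between them) or a kappa-B site of NF-kB (GGGA and CC with 4 bases between them). The Timd4 stretch (chr11:46810549-46810798, plus strand) held MAF cores at -150 and -44 from the start. The Cbr2 stretch (chr11:120732022-120732271, minus strand) held a PU.1 core at -79. Cd163 (chr6:124304401-124304650, plus strand) held kappa-B matches at -73 and -54. The F13a1 stretch (chr13:37050245-37050494, minus strand), before the upstream one of its 2 listed start sites, held a PU.1 core at -66. The stretch before the other start site of F13a1 (chr13:37049214-37049463, minus strand), not shown, held no match to these motifs. No match to these motifs lay in the stretch of Cd209b (chr8:3926842-3927091, minus strand). Of 32851 such stretches in RefSeq, 23.3% hold the PU.1 core, 16.1% the MAF core, 5.85% the STAT6 site and 17.6% the kappa-B site. A match describes letters, not binding.
Timd4: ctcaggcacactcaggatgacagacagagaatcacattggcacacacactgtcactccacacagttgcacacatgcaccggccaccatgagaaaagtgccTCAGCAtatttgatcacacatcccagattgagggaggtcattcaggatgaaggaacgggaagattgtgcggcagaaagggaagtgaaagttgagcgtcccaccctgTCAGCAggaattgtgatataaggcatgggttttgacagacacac
Cbr2: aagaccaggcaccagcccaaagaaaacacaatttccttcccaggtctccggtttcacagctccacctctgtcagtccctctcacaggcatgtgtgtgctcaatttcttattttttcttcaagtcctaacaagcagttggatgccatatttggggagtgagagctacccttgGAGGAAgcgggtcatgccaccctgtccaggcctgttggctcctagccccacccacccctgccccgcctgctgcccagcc
F13a1: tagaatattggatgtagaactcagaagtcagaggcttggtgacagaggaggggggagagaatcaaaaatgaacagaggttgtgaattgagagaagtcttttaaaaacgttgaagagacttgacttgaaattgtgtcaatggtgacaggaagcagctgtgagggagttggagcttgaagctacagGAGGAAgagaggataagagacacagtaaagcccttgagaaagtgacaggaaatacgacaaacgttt
Cd163: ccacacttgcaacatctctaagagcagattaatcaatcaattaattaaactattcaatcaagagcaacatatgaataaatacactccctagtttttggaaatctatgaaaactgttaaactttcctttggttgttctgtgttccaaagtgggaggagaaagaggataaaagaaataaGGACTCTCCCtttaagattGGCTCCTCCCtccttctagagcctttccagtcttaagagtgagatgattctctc
Cd209b: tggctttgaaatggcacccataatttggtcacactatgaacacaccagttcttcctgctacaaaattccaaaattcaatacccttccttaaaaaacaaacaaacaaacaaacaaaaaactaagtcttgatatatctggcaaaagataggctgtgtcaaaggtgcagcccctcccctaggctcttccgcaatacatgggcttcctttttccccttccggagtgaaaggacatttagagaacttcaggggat

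Per length of annotated exons, in CPM per kilobase, Cbr2 (875), F13a1 (777) and Folr2 (621) led the 10 members in CD206+ WT cells on SD. Timd4 (12.1) and Vsig4 (12.7) stood lowest there. In CD11c+ WT cells on SD, F13a1 (189) and Mrc1 (71.2) led per kilobase, and Vsig4 (0.326), Timd4 (0.823) and Lyve1 (0.892) were lowest. The summed level of the 10 members in CD206+ cells was 7534 ± 626 CPM in KO on HFD, 4954 ± 89.6 CPM in WT on HFD, 7335 ± 1576 CPM in KO on SD and 11630 ± 1319 CPM in WT on SD (SD, n = 4 each). In CD11c+ cells it was 1772 ± 379, 1377 ± 170, 1371 ± 378 and 1929 ± 208 CPM in the same order of groups. WT CD206+ cells on HFD thus had the lowest summed level of the CD206+ groups and the narrowest spread. These sums rest mostly on F13a1 and on Mrc1, whose product was sorted on. They averaged 5239 and 1893 CPM in CD206+ and 1272 and 454 CPM in CD11c+ WT cells on SD.

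**Figure D1:**
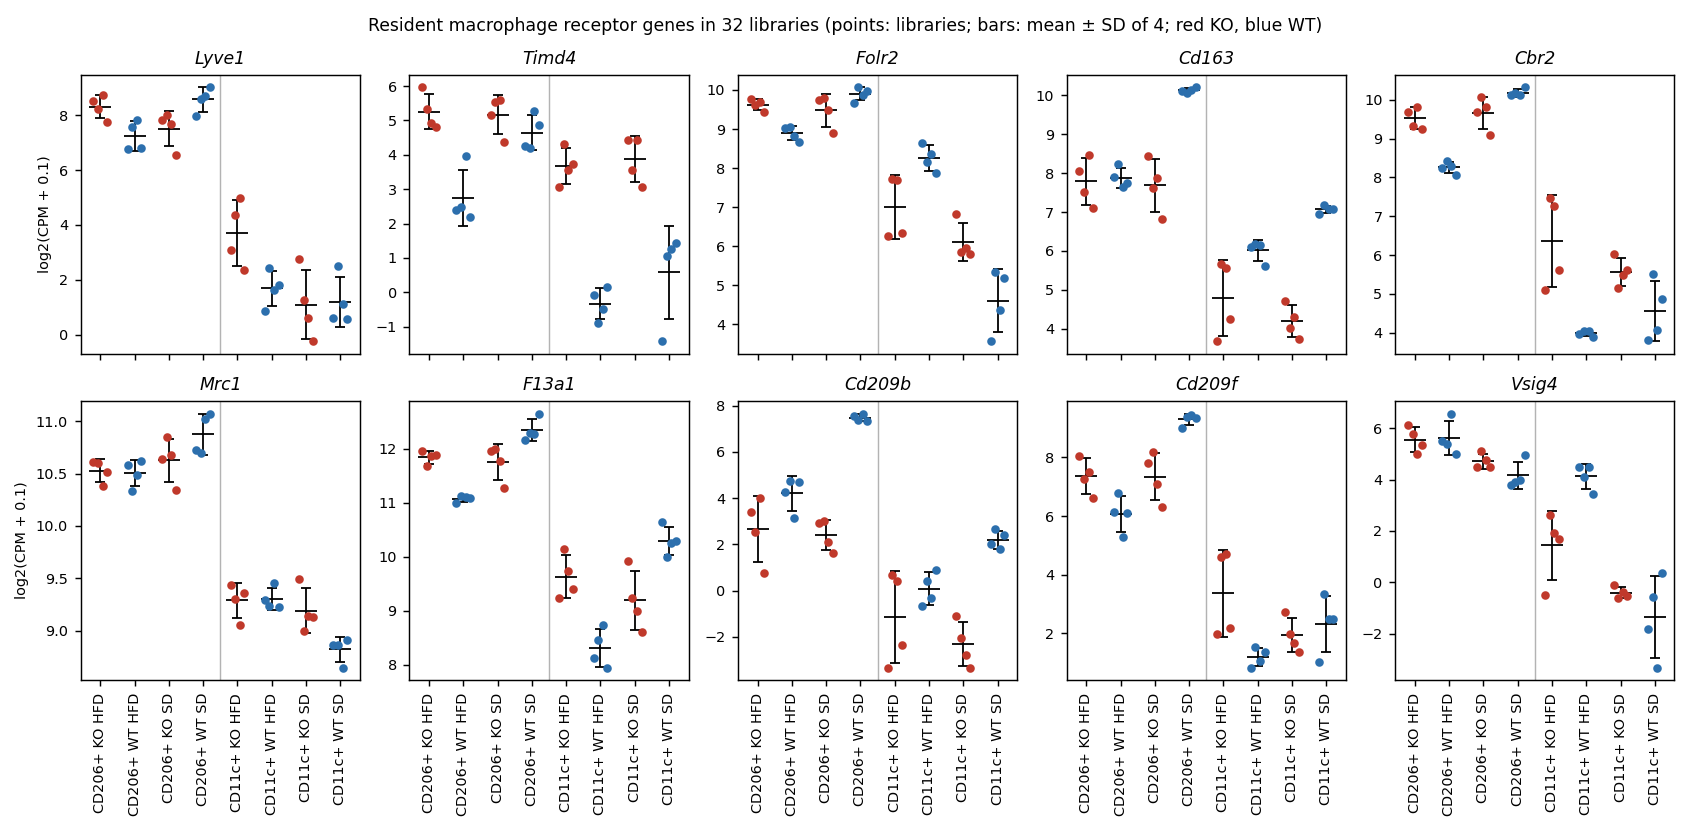
Level of each of the 10 genes in every library, as log2(CPM + 0.1), by group, with CD206+ groups left of the line and CD11c+ groups right of it. Points are libraries and bars the mean ± SD of 4. In Cd163 and Cd209b the 4 CD206+ WT SD libraries lie above all others, whereas Timd4 is higher in KO than in WT libraries of the CD11c+ population.

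The members separated the sorted populations in each genotype and on each diet. They were chosen as resident macrophage genes with earlier results of these data known, so the counts below only describe them. Leaving out Mrc1, whose product CD206 was sorted on, 9 of 9 members were higher in CD206+ than in CD11c+ cells of KO mice on HFD, 9 of 9 in KO mice on SD, 8 of 9 in WT mice on HFD and 9 of 9 in WT mice on SD. Over all genes tested, 22.5%, 26.1%, 8.7% and 33.5% were called higher in these comparisons. The median log2 change of the 9 members was 2.86, 4.10, 3.37 and 5.27, against 0.0475, 0.0504, 0.00239 and 0.0645 over all genes. Their libraries did not overlap between populations, but for Timd4 in KO mice on SD. Of all genes, 18.1%, 21.7%, 10.9% and 28.6% had all CD206+ libraries above all CD11c+ ones.

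Lyve1, a hyaluronan receptor shared with lymphatic endothelium, had 251, 386, 421 and 520.1 CPM in the 4 CD206+ WT libraries on SD, against 1.41, 5.55, 2.09 and 1.37 CPM in the CD11c+ ones. Every CD206+ library stood far above the CD11c+ ones, a log2 change of 7.21 ± 0.60 (adjusted p = 2.68e-11). In KO mice on HFD it had 365, 304, 425 and 216 CPM in CD206+ and 8.40, 20.7, 31.5 and 5.05 CPM in CD11c+ libraries (4.32 ± 0.50, adjusted p = 8.73e-08). Lymphatic endothelial markers were low: the 6 genes of that list summed to between 1.00 and 8.18 CPM in the libraries of all groups. Ccl21a was at 0 in all libraries. In CD206+ cells of WT mice on both diets and of KO mice on SD, every other gene of the list was detected. The part of lymphatic cells in the Lyve1 level was not tested.

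Markers of other cells moved with the populations too, given here in the order KO on HFD, KO on SD, WT on HFD and WT on SD. Of 7 adipocyte genes 7, 7, 0 and 7 were higher in CD206+ cells, of 7 stromal genes 5, 7, 4 and 7, and of 7 blood endothelial genes 5, 6, 2 and 7. Adipocyte sums in WT mice were 17.7 to 48.9 CPM in CD206+ and 9.31 to 32.8 CPM in CD11c+ cells on HFD, and 178 to 232 CPM in CD206+ and 20.1 to 33.5 CPM in CD11c+ cells on SD. Of 8 dendritic cell genes 6, 6, 5 and 5 were lower in CD206+ cells, and of 8 monocyte genes 3, 2, 1 and 2. Over all genes, 22.5%, 26.1%, 8.7% and 33.5% were called higher and 23.3%, 25.6%, 11.7% and 30.2% lower. The monocyte counts were near the share of all genes called lower. Of 7 pan-macrophage genes 4, 4, 1 and 4 were higher and 0, 1, 1 and 2 lower, and of 10 genes of large peritoneal macrophages 4, 6, 4 and 4 were higher. Their part in the separation was not tested.

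Vsig4 encodes a receptor for complement C3 fragments, and Folr2 a folate receptor. Their gap between populations was the one that differed most with diet in WT mice. On SD, Vsig4 stood at 18.9 ± 8.22 CPM in CD206+ and 0.483 ± 0.519 CPM in CD11c+ WT cells (5.37 ± 0.57, adjusted p = 3.00e-09). On HFD the levels were 53.6 ± 28.2 and 18.1 ± 5.38 CPM (1.57 ± 0.38, adjusted p = 0.00372). Folr2 on HFD had 519, 530, 452 and 406 CPM in CD206+ WT libraries, against 401, 284, 327 and 234 CPM in CD11c+ WT libraries. The libraries did not overlap, yet the change of 0.61 ± 0.31 did not pass the threshold (adjusted p = 0.154). With libraries of the same number paired, which the data bore out in WT mice, it was 0.63 (edgeR, adjusted p = 0.0472). On SD the Folr2 levels were 961 ± 109 CPM in CD206+ and 27.1 ± 13.3 CPM in CD11c+ WT cells, a change of 5.15 ± 0.37 (adjusted p = 1.33e-12).

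**Figure D2:**
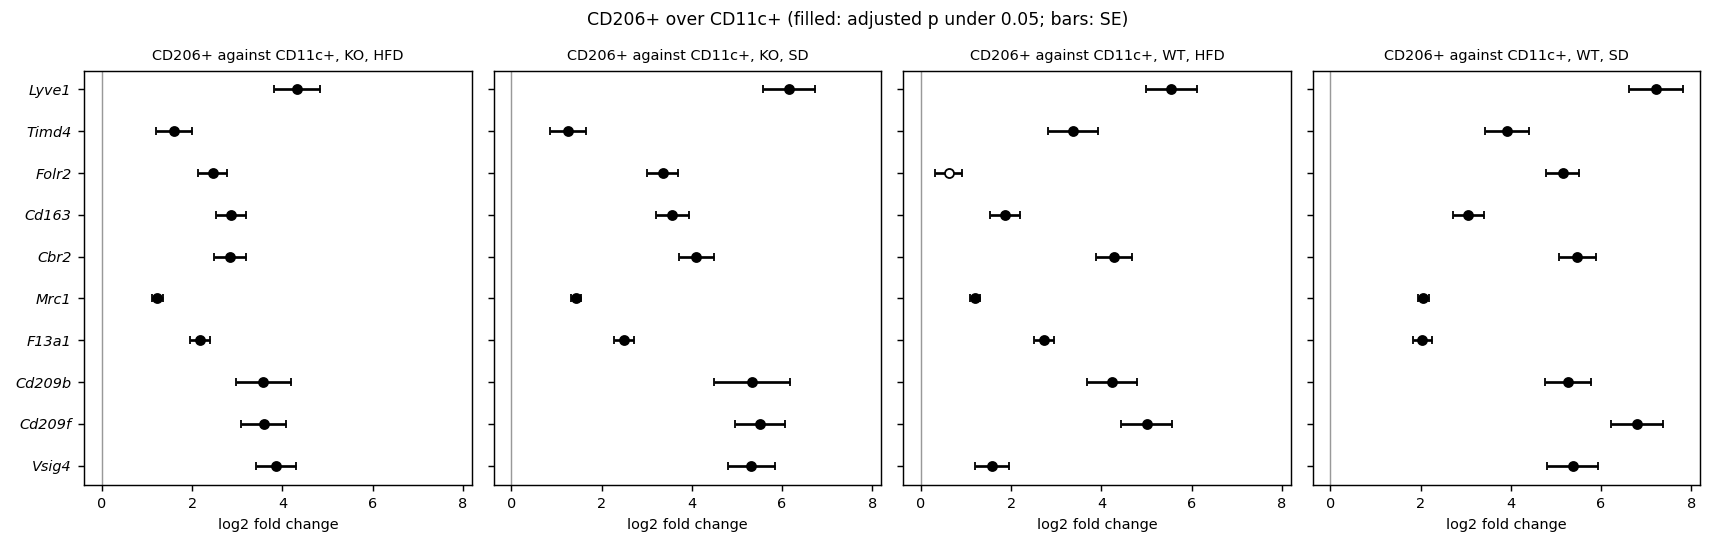
Log2 fold change of CD206+ over CD11c+ cells for the 10 genes, in KO mice on HFD and SD and in WT mice on HFD and SD, with bars for the SE and filled points for an adjusted p under 0.05. All points lie right of 0, and Folr2 in WT mice on HFD is the open one.

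Timd4, which binds phosphatidylserine on dying cells, had the narrowest gap of the 9 members in KO mice. It had 62.5, 40.03, 30.3 and 28.2 CPM in CD206+ KO libraries on HFD and 8.23, 19.9, 11.8 and 13.2 CPM in the CD11c+ ones (1.60 ± 0.40, adjusted p = 0.00181). On SD, 35.4, 46.3, 48.5 and 20.7 CPM stood against 21.4, 11.8, 21.5 and 8.28 CPM, where replicate 4 of the CD206+ cells lay below 2 CD11c+ libraries (1.26 ± 0.40, adjusted p = 0.00892). In WT mice the changes were 3.37 ± 0.55 on HFD and 3.91 ± 0.48 on SD. Cd209f, a C-type lectin, had changes of 3.59 ± 0.50, 5.51 ± 0.56, 5.0 ± 0.58 and 6.79 ± 0.58 in KO on HFD, KO on SD, WT on HFD and WT on SD. Mrc1 differed by 1.20 to 2.06 on the log2 scale, which describes the sort.

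High-fat feeding of WT mice lowered most of these genes in CD206+ cells. Of the 10 members, 9 fell and Vsig4 rose, where 13.5% of all genes fell and 14.2% rose (27.7% in all). Their median log2 change was -1.55, against -0.0207 over all genes. The HFD libraries lay wholly below the SD libraries for the 9 and wholly above for Vsig4, a separation that 31.4% of all genes showed, 15.4% downward and 16% upward.

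Cd163, the scavenger receptor for haemoglobin bound to haptoglobin, had 240, 302, 199 and 216 CPM in CD206+ WT libraries on HFD, against 1110, 1061, 1134 and 1185 CPM on SD. All 4 HFD libraries lay far below the SD ones, with a change of -2.23 ± 0.33 (adjusted p = 6.80e-06). Cd209b, a lectin that binds microbial sugars on marginal zone macrophages of the mouse spleen, had 19.3, 26.5, 8.65 and 26.2 CPM on HFD against 190, 165, 202 and 161 CPM on SD (-3.15 ± 0.44, adjusted p = 3.46e-06). Its relative Cd209f had 69.9, 111, 39.0 and 69.3 CPM on HFD and 513, 659, 700.2 and 655 CPM on SD (-3.13 ± 0.48, adjusted p = 1.08e-05). These 3 genes had the largest falls of the 10 members. Timd4 had 5.11, 5.44, 15.5 and 4.42 CPM on HFD and 18.9, 18.3, 38.6 and 29.2 CPM on SD. Replicate 3 was the high one on HFD, and the change was -1.79 ± 0.41 (adjusted p = 0.00148).

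Cbr2, a carbonyl reductase that marks resident macrophages, fell by 1.92 ± 0.35 in CD206+ WT cells on HFD (adjusted p = 0.000123), with 303, 342, 313 and 269 CPM on HFD against 1107, 1151, 1108 and 1278 CPM on SD. F13a1, the catalytic A subunit of the fibrin cross-linking factor XIII, fell by 1.28 ± 0.21 (adjusted p = 4.39e-05). Folr2 fell by 1.01 ± 0.31 (adjusted p = 0.0143), Lyve1 by 1.31 ± 0.44 (adjusted p = 0.0254) and Mrc1 by 0.38 ± 0.11 (adjusted p = 0.0137). The calls of Lyve1 and Mrc1 depend on single libraries, and DESeq2 did not call Lyve1 (-1.31, adjusted p = 0.072). Without any 1 of HFD replicates 1 and 4 and SD replicates 3 and 4, Lyve1 lay between -1.27 and -1.14 and did not pass. Mrc1 did not pass without HFD replicate 2 (-0.31) or SD replicate 3 or 4 (-0.32 and -0.29). Vsig4 had 45.8, 41.8, 94.9 and 31.7 CPM on HFD, against 13.8, 14.8, 15.8 and 31.2 CPM on SD, a rise of 1.51 ± 0.38 (adjusted p = 0.00351).

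Markers of other cells moved with this diet comparison, where 14.2% of all genes rose and 13.5% fell. In CD206+ WT cells 7 of 7 stromal genes rose on HFD, their summed level lying between 421 and 1866 CPM on HFD and between 221 and 711 CPM on SD. Of 7 adipocyte genes 6 fell, with sums of 17.7 to 48.9 CPM on HFD and 178 to 232 CPM on SD. Itgax rose by 3.23 ± 0.34, with 20.7 to 50.3 CPM on HFD and 1.26 to 6.08 CPM on SD. Of 6 mast cell genes 5 rose. Of 7 pan-macrophage genes 2 rose, Adgre1 (0.69 ± 0.13) and Cd68 (0.50 ± 0.093), and their sums were 19716 to 21995 CPM on HFD and 17727 to 22619 CPM on SD. Of 8 dendritic cell genes 3 fell, with sums of 27.8 to 31.9 CPM on HFD and 78.4 to 84.1 CPM on SD, as did 2 of 8 monocyte genes and 1 of 6 T cell genes, Cd2 (-2.86 ± 0.39). The part of these cells in the fall of the members was not tested.

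In CD11c+ WT cells the members did not all move one way with diet. Folr2, Vsig4 and Mrc1 rose and Cd163, F13a1 and Cd209b fell on HFD, where 23.8% of all genes rose and 22.6% fell (46.3% in all). The libraries of these 6 did not overlap between the diets, as in 20.8% of all genes upward and 19.4% downward (40.2% in all). Vsig4 had 22.1, 17.0, 22.2 and 10.9 CPM on HFD, against 0.182, 0.579, 0 and 1.17 CPM on SD. It was close to absent on SD, with at most 18 counts in a library, and the change was 5.31 ± 0.57 (adjusted p = 6.11e-09). Folr2 had 401, 284, 327 and 234 CPM on HFD and 11.8, 40.2, 20.4 and 36.0 CPM on SD, with no overlap (3.53 ± 0.34, adjusted p = 8.64e-10). F13a1 went the other way, with 280.1, 352, 426 and 248 CPM on HFD and 1590, 1027, 1216 and 1257 CPM on SD (-1.96 ± 0.22, adjusted p = 1.37e-08). Cd163 fell by 1.04 ± 0.32 (adjusted p = 0.00838) and Cd209b by 2.11 ± 0.60 (adjusted p = 0.0044), and Mrc1 rose by 0.48 ± 0.11 (adjusted p = 0.00088). DESeq2 also called Timd4 (-1.31, adjusted p = 0.0278) and Cd209f (-1.37, adjusted p = 0.0256) lower, which makes 5 members lower and 3 higher. Cd209f was also called by edgeR fitted on these groups alone (-1.34, adjusted p = 0.0186) and when summed with Cd209g (-1.42, adjusted p = 0.0432). Stromal genes also rose in this comparison, 7 of 7, with sums of 189.95 to 577 CPM on HFD and 50.2 to 161 CPM on SD. Of 8 monocyte genes 4 fell and 1 rose, with sums of 1268 to 2412 CPM on HFD and 9912 to 18835 CPM on SD. Of 7 pan-macrophage genes 5 rose, among them Fcgr1 (2.53 ± 0.25), Mertk (1.78 ± 0.21), Adgre1 (1.56 ± 0.13) and Cd68 (1.22 ± 0.094), and 2 fell, with sums of 20069 to 22995 CPM on HFD and 30802 to 34665 CPM on SD. Of 6 mast cell genes 5 rose, with sums of 15.03 to 43.1 CPM on HFD and 1.55 to 5.31 CPM on SD. T cell sums were 12.8 to 20.1 CPM on HFD and 145 to 215 CPM on SD, where 2 of 6 genes fell and 1 rose, and 3 of 8 dendritic cell genes fell. The part of these cells in the members' changes was not tested.

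The response to HFD differed between populations of WT mice for 4 members, where 32.4% of all genes differed. The difference of CD206+ less CD11c+ responses was -4.54 ± 0.46 for Folr2 (adjusted p = 2.57e-08), -3.80 ± 0.71 for Vsig4 (adjusted p = 0.000135), -0.86 ± 0.16 for Mrc1 (adjusted p = 0.000156) and -1.19 ± 0.45 for Cd163 (adjusted p = 0.0426). With same-numbered libraries paired, 8 members passed: Lyve1 (-1.70, adjusted p = 0.0193), Cbr2 (-1.33, adjusted p = 0.0277), F13a1 (0.71, adjusted p = 0.0226) and Cd209f (-1.92, adjusted p = 0.0214) joined them. Cd163 passed only without CD11c+ HFD replicate 4, CD206+ HFD replicate 2 or CD11c+ SD replicate 2 among the 16 libraries left out in turn, with -1.27, -1.27 and -1.24. Without any other library it lay between -1.21 and -1.07, with adjusted p between 0.0569 and 0.0934, and with no filter on low counts it did not pass (-1.16, adjusted p = 0.0503).

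**Figure D3:**
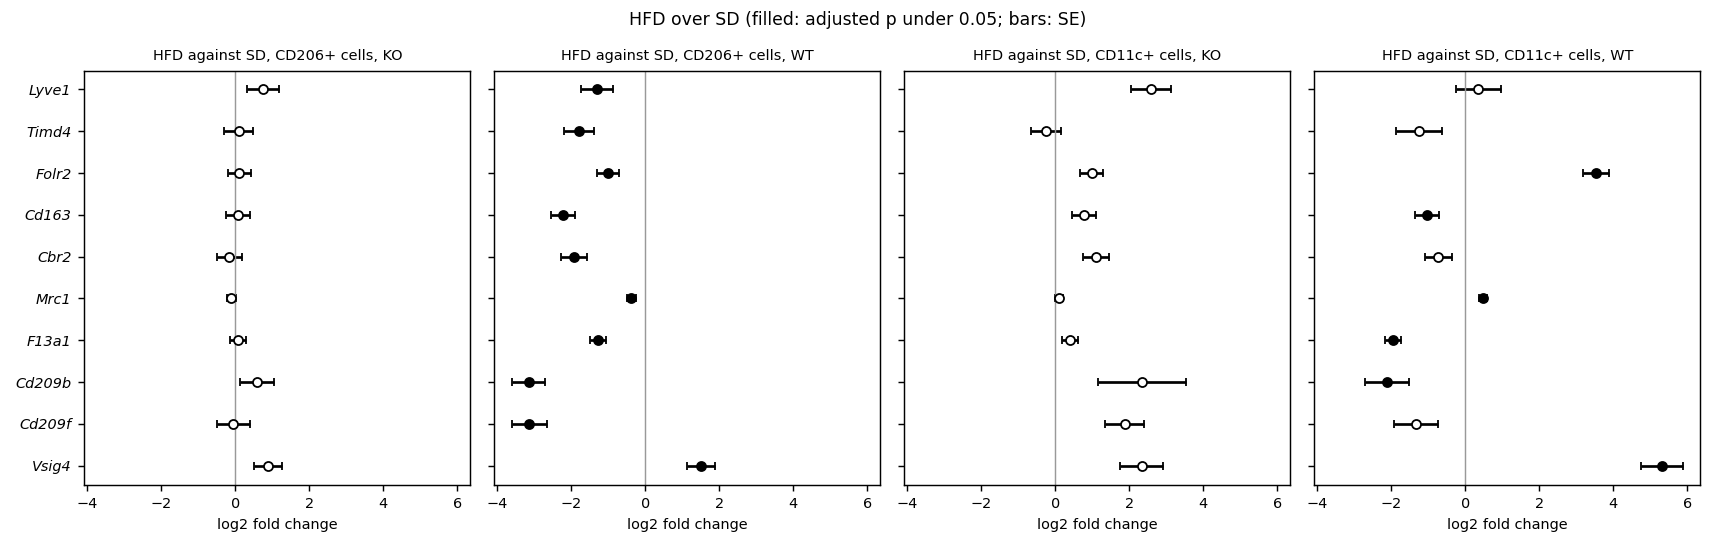
Log2 fold change of HFD over SD for the 10 genes in CD206+ KO, CD206+ WT, CD11c+ KO and CD11c+ WT cells, with bars for the SE and filled points for an adjusted p under 0.05. In CD206+ WT cells 9 points lie left of 0, whereas no point is filled in either KO panel.

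In KO mice no member passed the threshold between the diets. In CD206+ KO cells 0% of all genes were called by edgeR, no gene in 13453, and 1 member, Vsig4, had an unadjusted p under 0.05. DESeq2 called 0 members and 18 genes. The median change of the members was 0.0826. Cd209b had 10.6, 5.72, 15.95 and 1.59 CPM on HFD and 7.44, 7.97, 4.19 and 3.01 CPM on SD, which overlap widely. Each of the 10 members overlapped between the diets, as did all but 4.3% of genes (2.32% upward and 1.98% downward). The 95% interval of the Cd209b change ran from -0.37 to 1.54, clear of the -3.15 found in WT mice. Cd163, with 267, 183, 354 and 138 CPM on HFD and 348, 197, 237 and 113 CPM on SD, had an interval from -0.57 to 0.72, against -2.23 in WT.

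In CD11c+ KO cells 0.00743% of all genes were called, a single gene, and none of the members. All 10 members overlapped between the diets, where 3.31% of all genes did not (1.64% upward and 1.67% downward). An unadjusted p under 0.05 was found for 6 members, Lyve1, Folr2, Cd163, Cbr2, Cd209f and Vsig4, all higher on HFD. DESeq2 called 2 of them, Lyve1 (2.58, adjusted p = 0.0114) and Vsig4 (2.35, adjusted p = 0.0163), and 51 genes in all. Lyve1 had 8.40, 20.7, 31.5 and 5.05 CPM on HFD and 6.59, 2.28, 1.42 and 0.748 CPM on SD. Replicates 2 and 3 on HFD were the high libraries, and replicate 4 lay below SD replicate 1. The edgeR change of Lyve1 was 2.59 ± 0.55 (adjusted p = 0.084). Vsig4 had 0.612, 6.02, 3.67 and 3.14 CPM on HFD and 0.831, 0.557, 0.664 and 0.598 CPM on SD, with a change of 2.34 ± 0.58 (adjusted p = 0.126). For Vsig4, HFD replicate 1 lay within the SD libraries.

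The genotype effect itself differed with diet. Expressed as the KO effect on HFD less the KO effect on SD, 7 of 10 members passed upward and none downward in CD206+ cells, where 5.23% of all genes passed upward and 6.63% downward (11.9% in all). The median over the members was 1.82, against 0.0240 over all genes. Cd209b (3.74 ± 0.63, adjusted p = 0.000171), Cd209f (3.08 ± 0.64, adjusted p = 0.00149) and Cd163 (2.30 ± 0.45, adjusted p = 0.000884) had the largest differences. Lyve1 (2.05 ± 0.62), Timd4 (1.88 ± 0.56), Cbr2 (1.76 ± 0.48) and F13a1 (1.35 ± 0.30) also passed, at adjusted p of 0.0279, 0.0264, 0.0155 and 0.00303. Leaving out 1 library ended the call of Lyve1 for 5 of 16 libraries (KO HFD replicate 3, WT HFD replicates 1 and 4, KO SD replicate 4 and WT SD replicate 4; 1.81 to 1.93). It ended that of Timd4 for 6 (KO HFD replicate 1, WT HFD replicates 1, 2 and 4, KO SD replicate 4 and WT SD replicate 3; 1.60 to 1.73). DESeq2 did not call Lyve1 (2.05, adjusted p = 0.0726), and edgeR fitted on these groups alone also called Folr2 (1.12, adjusted p = 0.00232).

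In CD11c+ cells 6 members passed upward and 2 downward in the same comparison, where 13.9% and 15% of all genes did (28.8% in all). Upward were Cd209b (4.44 ± 1.30), Cd209f (3.22 ± 0.80), F13a1 (2.36 ± 0.30), Lyve1 (2.23 ± 0.82), Cbr2 (1.82 ± 0.50) and Cd163 (1.82 ± 0.46). Downward were Vsig4 (-2.97 ± 0.91, adjusted p = 0.0139) and Folr2 (-2.54 ± 0.45, adjusted p = 5.98e-05). Replicates 2 and 3 of KO on HFD stood apart from replicates 1 and 4 in Lyve1, Cbr2, Cd209f, Folr2 and Cd163. Without both of them 3 members passed in place of 8: Lyve1 (0.96), Cd163 (0.82), Cbr2 (0.53), Cd209b (0.86) and Cd209f (1.41) no longer did. Lyve1 lost its call without any 1 of 9 libraries: KO HFD replicates 2 and 3, WT HFD replicates 1, 3 and 4, KO SD replicates 2, 3 and 4 and WT SD replicate 2 (1.51 to 2.30), and in the fit of these groups alone (2.22, adjusted p = 0.0793). Cd209b lost it without KO HFD replicate 2 (3.79, adjusted p = 0.0633).

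Timd4 was the member most raised in KO mice. On HFD, CD206+ KO libraries had 62.5, 40.03, 30.3 and 28.2 CPM, against 5.11, 5.44, 15.5 and 4.42 CPM in WT. No KO library reached down to a WT one, and the change was 2.41 ± 0.42 (adjusted p = 5.67e-05). In CD11c+ cells it had 8.23, 19.9, 11.8 and 13.2 CPM in KO libraries on HFD and 0.843, 0.439, 0.613 and 1.01 CPM in WT libraries (4.18 ± 0.54, adjusted p = 3.49e-07). On SD the CD11c+ KO libraries had 21.4, 11.8, 21.5 and 8.28 CPM, against 0.273, 1.98, 2.30 and 2.61 CPM in WT (3.18 ± 0.48, adjusted p = 7.57e-06). In CD206+ cells on SD the libraries overlapped, with 35.4, 46.3, 48.5 and 20.7 CPM in KO and 18.9, 18.3, 38.6 and 29.2 CPM in WT (0.52 ± 0.39, adjusted p = 0.354). On SD the KO effect differed between the populations by -2.65 ± 0.62, CD206+ less CD11c+ (adjusted p = 0.00775).

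Across the members, 5 were higher and 3 lower in CD11c+ KO than WT cells on HFD, where 18.6% of all genes were higher and 19.4% lower (38% in all). On SD 3 were higher and 3 lower, where 13.2% of all genes were higher and 13.6% lower (26.8% in all). In CD206+ cells 4 were higher and 1 lower on HFD, where 10.5% of all genes were higher and 11.3% lower (21.8% in all). On SD 0 were higher and 4 lower, where 11.8% of all genes were higher and 12.7% lower (24.5% in all). KO and WT libraries did not overlap for 6, 6, 4 and 5 members in these 4 comparisons, where 34.7%, 23.4%, 25.6% and 27.6% of all genes did not. DESeq2 called 3 members in CD206+ cells on HFD, leaving out Cd209b and Cd209f. The members' median changes in CD11c+ cells were 0.66 on HFD and 0.21 on SD, against -0.0169 and -0.0193 over all genes. In CD206+ cells they were 0.75 on HFD and -0.53 on SD, against -0.00436 and -0.0349.

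Cd163 and Cd209b were low in KO cells of both populations on SD. Cd163 had 348, 197, 237 and 113 CPM in CD206+ KO libraries, against 1110, 1061, 1134 and 1185 CPM in WT. All KO libraries lay far below the WT ones (-2.33 ± 0.33, adjusted p = 4.07e-06). In CD11c+ cells it had 26.3, 16.1, 19.8 and 13.3 CPM in KO and 124, 145, 136 and 135 CPM in WT (-2.84 ± 0.35, adjusted p = 2.21e-07). Cd209b had 7.44, 7.97, 4.19 and 3.01 CPM in CD206+ KO libraries on SD and 190, 165, 202 and 161 CPM in WT ones, a change of -4.99 ± 0.49 (adjusted p = 1.07e-08). This was the largest change of a member between genotypes within CD206+ cells. In CD11c+ cells it rested on few counts, 7, 3, 1 and 0 in the KO libraries against 86, 128, 63 and 79 in WT (-5.05 ± 0.86, adjusted p = 4.31e-05).

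On HFD both genes were nearer between the genotypes. Cd163 in CD206+ cells had 267, 183, 354 and 138 CPM in KO and 240, 302, 199 and 216 CPM in WT, with the WT libraries inside the KO range and a 95% interval of -0.67 to 0.62. In CD11c+ cells its KO libraries, at 12.7, 50.2, 47.3 and 19.0 CPM, overlapped the WT ones at 68.9, 72.9, 71.1 and 48.5 CPM. That change was -1.02 ± 0.33 (adjusted p = 0.0143). It did not pass without KO replicate 1 (-0.75, adjusted p = 0.064) or 4 (-0.83, adjusted p = 0.0595), nor in the fit of these groups alone (-1.01, adjusted p = 0.0559), and was -2.01 without KO replicates 2 and 3. Cd209b in CD206+ cells on HFD had 10.6, 5.72, 15.95 and 1.59 CPM in KO and 19.3, 26.5, 8.65 and 26.2 CPM in WT. The libraries overlapped and the change of -1.25 ± 0.44 (adjusted p = 0.0404) held without KO replicate 3 (-1.76) or WT replicate 3 (-1.49) and was lost without any other single library (-1.38 to -0.91), in DESeq2 (-1.26, adjusted p = 0.188) and in the fit of these groups alone (-1.24, adjusted p = 0.136). In CD11c+ cells on HFD Cd209b did not pass (-0.61 ± 0.78, adjusted p = 0.572).

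Cbr2 was higher in KO cells on HFD. CD206+ KO libraries had 825, 640.5, 904 and 602 CPM, against 303, 342, 313 and 269 CPM in WT, with no overlap (1.28 ± 0.34, adjusted p = 0.00688). CD11c+ KO libraries had 34.3, 177, 154 and 48.9 CPM against 15.5, 16.4, 16.5 and 14.7 CPM in WT (2.71 ± 0.37, adjusted p = 9.39e-07). The WT libraries lay close together and KO replicates 2 and 3 were the high ones; without both the change was 1.42 (adjusted p = 0.000498). On SD Cbr2 did not pass in CD206+ cells (-0.48 ± 0.34) or CD11c+ cells (0.89 ± 0.35, adjusted p = 0.0617).

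F13a1 was higher in KO on HFD and lower in KO on SD. In CD206+ cells on HFD it had 3955, 3262, 3751 and 3772 CPM in KO libraries and 2036, 2233, 2191 and 2181 CPM in WT ones (0.77 ± 0.21, adjusted p = 0.00825). In CD11c+ cells on HFD the KO libraries had 604, 1127, 852 and 681 CPM, against 280.1, 352, 426 and 248 CPM in WT, with no overlap (1.32 ± 0.22, adjusted p = 1.31e-05). On SD the CD11c+ KO libraries had 965, 604, 513 and 392.2 CPM and the WT libraries 1590, 1027, 1216 and 1257 CPM (-1.04 ± 0.21, adjusted p = 0.00045). In CD206+ cells on SD the KO libraries had 3964, 4086, 3510 and 2460 CPM, below the 4594, 4978, 4966 and 6416 CPM of WT. That change of -0.58 ± 0.21 (adjusted p = 0.0449) held without KO replicate 1 (-0.66) and was lost without any other single library, where it lay between -0.63 and -0.41. With the stricter filter and with none it was -0.57, with adjusted p of 0.0505 and 0.0545.

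Cd209f in CD206+ cells had 267, 154, 183 and 97.5 CPM in KO and 69.9, 111, 39.0 and 69.3 CPM in WT on HFD. KO replicate 4 lay below WT replicate 2, and the change of 1.28 ± 0.45 (adjusted p = 0.0388) held without either of these (1.47 and 1.57) and was lost without any other single library (0.998 to 1.33) and in DESeq2 (1.27, adjusted p = 0.0608). On SD the KO libraries had 222, 288, 137 and 79.9 CPM, all below the 513, 659, 700.2 and 655 CPM of WT (-1.80 ± 0.45, adjusted p = 0.00374). In CD11c+ cells on HFD Cd209f had 3.84, 24.1, 26.04 and 4.41 CPM in KO and 1.69, 2.83, 1.99 and 2.46 CPM in WT (2.70 ± 0.57, adjusted p = 0.00035). Without KO replicates 2 and 3 this was 0.90 (adjusted p = 0.273). Summing Cd209f with Cd209g, which share sequence, gave 1.38, -1.76 and 2.71 for these 3 comparisons.

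Lyve1 in CD11c+ cells on HFD had 8.40, 20.7, 31.5 and 5.05 CPM in KO libraries and 1.74, 5.32, 3.01 and 3.43 CPM in WT libraries (2.27 ± 0.53, adjusted p = 0.00103). KO replicate 4 lay just below WT replicate 2, and without KO replicates 2 and 3 the change was 1.00 (adjusted p = 0.207). In CD206+ cells Lyve1 had 365, 304, 425 and 216 CPM in KO and 108, 189, 227 and 113 CPM in WT on HFD, and 225, 259, 203 and 94.9 CPM in KO against 251, 386, 421 and 520.1 CPM in WT on SD. The changes of 1.04 ± 0.44 on HFD (adjusted p = 0.0896) and -1.01 ± 0.44 on SD (adjusted p = 0.0912) did not pass. The fits of the compared groups alone called both, at 1.05 (adjusted p = 0.0174) and -1.0 (adjusted p = 0.0207).

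Folr2 and Vsig4 fell in CD11c+ KO cells on HFD. Vsig4 had 0.612, 6.02, 3.67 and 3.14 CPM in KO and 22.1, 17.0, 22.2 and 10.9 CPM in WT, with every KO library below the WT ones (-2.42 ± 0.43, adjusted p = 4.25e-05). Folr2 had 76.2, 211, 206 and 81.3 CPM in KO and 401, 284, 327 and 234 CPM in WT (-1.12 ± 0.31, adjusted p = 0.00482), and -1.96 without KO replicates 2 and 3. On SD, Folr2 was higher in KO, with 114, 57.8, 61.8 and 55.2 CPM against 11.8, 40.2, 20.4 and 36.0 CPM in WT (1.42 ± 0.32, adjusted p = 0.00123). In CD206+ cells neither gene passed on either diet. Yet all 4 KO libraries on HFD had more Folr2 (692 to 874 CPM) than the WT ones (406 to 530 CPM), and the fit of these groups alone called it (0.74, adjusted p = 0.000613). The KO effect on HFD, CD206+ less CD11c+, differed by 2.29 ± 0.56 for Vsig4 (adjusted p = 0.0189) and 1.85 ± 0.44 for Folr2 (adjusted p = 0.0137), where 4.36% of all genes differed. On SD that of Folr2 differed by -1.81 ± 0.44 (adjusted p = 0.0114), where 6.57% did. Cbr2 passed there with same-numbered libraries paired (-1.52, adjusted p = 0.034, against -1.37 and 0.0917 unpaired).

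Mrc1, the mannose receptor, had the smallest change of the 10 members between genotypes in 3 of the 4 comparisons. On HFD its change was 0.020 with a 95% interval of -0.21 to 0.25 in CD206+ cells, and -0.0095 with an interval of -0.24 to 0.22 in CD11c+ cells. On SD it was -0.25 ± 0.11 in CD206+ cells (adjusted p = 0.112). It was higher in CD11c+ KO cells on SD, with 723, 510.2, 564 and 562 CPM against 466, 465, 401 and 482 CPM in WT (0.38 ± 0.11, adjusted p = 0.0134), though not without KO replicate 1 (0.28, adjusted p = 0.0756). Cells were sorted on CD206, the product of Mrc1. How far the gate bears on the Mrc1 level within a population was not tested.

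**Figure D4:**
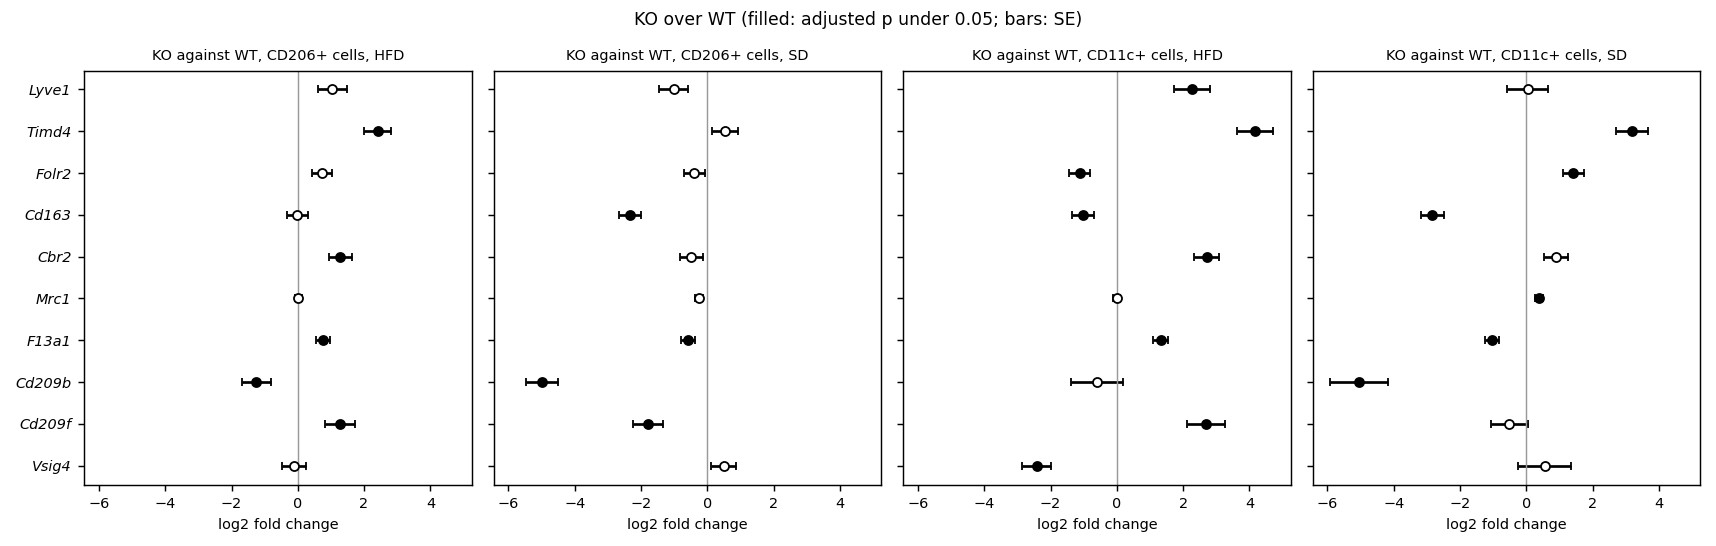
Log2 fold change of KO over WT for the 10 genes in CD206+ cells on HFD and SD and in CD11c+ cells on HFD and SD, with bars for the SE and filled points for an adjusted p under 0.05. Cd209b and Cd163 lie far left on SD in both populations, and Timd4 lies right of 0 in all 4 panels but is open in CD206+ cells on SD.

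Markers of other cells also moved with genotype. Of all genes, 10.5% were higher and 11.3% lower in CD206+ KO cells on HFD, and 11.8% and 12.7% on SD. In CD11c+ KO cells 18.6% were higher and 19.4% lower on HFD, and 13.2% and 13.6% on SD. On HFD, stromal genes were lower in KO, 7 of 7 in both populations, with sums of 194 to 266 CPM in KO and 421 to 1866 CPM in WT among CD206+ cells. Itgax was lower in CD206+ KO cells on HFD, at 3.41 ± 1.23 CPM in KO and 34.4 ± 12.6 CPM in WT (SD, n = 4 each; -3.34 ± 0.34, adjusted p = 1.34e-08). Of 7 pan-macrophage genes 1 was lower in CD206+ KO cells on HFD, Cd68 (-0.56 ± 0.093), and 2 in CD11c+ KO cells, Cd68 (-0.92 ± 0.094) and Adgre1 (-0.62 ± 0.13). On SD 4 were higher and 1 lower in CD11c+ KO cells, with Fcgr1 at 2.01 ± 0.24 and Mertk at 0.99 ± 0.21, and 3 were higher in CD206+ KO cells, Fcgr1, Adgre1 and Cd14. Monocyte genes were higher in KO on HFD, 8 of 8 in CD11c+ cells with sums of 4375 to 8646 CPM in KO and 1268 to 2412 CPM in WT, and 6 of 8 in CD206+ cells. On SD 4 of 8 were higher in CD11c+ KO cells, although the sum was 6881 to 9476 CPM in KO and 9912 to 18835 CPM in WT. In CD206+ KO cells on SD 5 of 8 monocyte genes were higher, among them Ly6c2 (4.58 ± 0.59), Plac8 (3.48 ± 0.48), Hp (2.70 ± 0.36) and Vcan (2.09 ± 0.60), with sums of 966 to 2366 CPM in KO and 1393 to 2496 CPM in WT. Dendritic cell genes were higher in CD11c+ KO cells on HFD, 8 of 8, and on SD, 3 of 8. In CD206+ KO cells 2 of 8 were higher on HFD, and 1 was higher and 2 lower on SD. Of 10 genes of large peritoneal macrophages, which also carry Timd4, 5 were higher in CD11c+ KO cells on HFD and 2 on SD, with sums of 57.3 to 71.6 CPM in KO and 16.8 to 34.7 CPM in WT on HFD, and 55.2 to 79.0 and 33.5 to 57.8 CPM on SD. Blood endothelial genes were lower in CD206+ KO cells on SD, 6 of 7, with sums of 61.5 to 70.9 CPM in KO and 130.4 to 200.2 CPM in WT. In CD11c+ KO cells on SD the called ones with the largest changes were lower too. These were Tek (-2.14 ± 0.49), Cdh5 (-1.71 ± 0.50), Esam (-1.62 ± 0.36) and Pecam1 (-1.45 ± 0.33). On HFD Cdh5 (-1.66 ± 0.48), Tek (-1.40 ± 0.46) and Esam (-0.88 ± 0.35) were lower in CD11c+ KO cells. Of 6 T cell genes 5 were higher in KO on HFD in each population, and of 5 neutrophil genes 3 in CD11c+ and 4 in CD206+ cells. On SD 4 T cell genes were higher and 2 lower in CD206+ KO cells, with Cd3g at 2.79 ± 0.61 and Cd3e at 2.72 ± 0.62, and 2 neutrophil genes were higher, S100a8 and Csf3r (1.27 ± 0.21). In CD11c+ KO cells on SD Cd3g was higher (1.96 ± 0.58) and Cd2 lower (-1.93 ± 0.33). T cell sums there were 57.9 to 74.6 CPM in KO and 145 to 215 CPM in WT. Of 6 mesothelial and 4 B cell genes, 1 mesothelial gene was higher in CD11c+ KO cells on HFD and 1 B cell gene in CD11c+ KO cells on SD. Of 6 mast cell genes 2 were lower in CD11c+ KO cells on HFD and 1 in CD206+ KO cells on HFD. In these comparisons the mesothelial, B cell and mast cell counts were near the share of all genes called. Of 7 adipocyte genes 6 were higher in CD206+ KO cells on HFD, with sums of 90.2 to 220.3 CPM in KO and 17.7 to 48.9 CPM in WT. In CD11c+ KO cells on HFD the called ones with the largest changes went both ways. Cfd (4.62 ± 0.58), Retn (2.45 ± 0.48) and Car3 (1.55 ± 0.37) were higher, and Lep (-2.72 ± 0.67) was lower. The part of these cells in the members' changes was not tested.

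Ordered by group mean, the CD206+ groups stood above all CD11c+ groups for 9 members, though the lowest CD206+ and highest CD11c+ groups overlapped in Cd163, Cd209b and Vsig4. Timd4 was the exception: CD11c+ KO cells on SD (15.7 ± 6.75 CPM) and on HFD (13.3 ± 4.898 CPM) stood above CD206+ WT cells on HFD (7.62 ± 5.28 CPM), with overlapping libraries between these neighbours. CD206+ WT cells on SD were highest in 8 members. In Cd163 (1123 ± 51.5 CPM), Cd209b (180 ± 19.7 CPM), Cd209f (632 ± 81.7 CPM), Cbr2 (1161 ± 80.6 CPM) and F13a1 (5239 ± 805 CPM) they overlapped no other group. For Cd163 the next 3 groups, CD206+ WT on HFD (239 ± 45.3 CPM), KO on HFD (235 ± 95.3 CPM) and KO on SD (224 ± 97.9 CPM), could not be separated by their spread.

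Of 25 other genes of resident tissue macrophages, 0 rose and 15 fell on HFD in CD206+ WT cells (median -1.08), where 14.2% of all genes rose and 13.5% fell. In CD206+ KO cells on SD, 2 were higher and 16 lower than in WT (median -0.999), where 11.8% and 12.7% of all genes were. On HFD 7 were higher and 0 lower in CD206+ KO cells (median 0.31), where 10.5% and 11.3% of all genes were. Cd209a (-4.71 ± 0.55) and Cd209d (-4.32 ± 0.51), neighbours of Cd209b, and the iron exporter Slc40a1 (-3.77 ± 0.55) were lower in CD206+ KO cells on SD. The scavenger receptor Marco was higher in KO on both diets, by 4.75 ± 0.68 on SD and 3.47 ± 0.62 on HFD in CD206+ cells, and the chemokine Ccl8 by 2.89 ± 0.44 on HFD. Marco averaged 89.6 ± 25.0 CPM in CD206+ KO cells and 3.35 ± 1.64 CPM in CD206+ WT cells on SD. In the C-type lectin list, 8 of 13 genes fell on HFD in CD206+ WT cells and none rose.

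Of 16 genes induced by interleukin-4 outside the members, 12 were higher and 0 lower in CD11c+ KO than WT cells on HFD (median 1.66), where 18.6% and 19.4% of all genes were, among them the chitinase-like Chil3 (3.28 ± 0.98) and the ligand Pdcd1lg2 (3.53 ± 0.47). On SD 3 were higher and 7 lower (median -0.95), where 13.2% and 13.6% of all genes were. Retnla, a secreted protein of alternatively activated macrophages, fell by 3.82 ± 0.46 on HFD in CD206+ WT cells and differed by -2.80 ± 0.44 in CD206+ KO against WT cells on SD. Of 14 genes of haem handling beside Cd163, 9 were higher and 1 lower in CD11c+ KO cells on SD, with haptoglobin, Hp, up by 5.16 ± 0.42 where Cd163 fell. Hp and Chil3 are also on the list of monocyte markers. Monocyte markers were higher in CD11c+ KO cells on HFD, as given above.

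Lists built around the functions of single members gave mixed counts, several of them near the share of all genes called. That share was 14.2% up and 13.5% down for HFD in CD206+ WT cells, 10.5% and 11.3% for KO in CD206+ cells on HFD, and 18.6% and 19.4% for KO in CD11c+ cells on HFD. Of 9 hyaluronan genes beside Lyve1, 5 rose and 0 fell on HFD in CD206+ WT cells, with the clearance receptor Stab2 up by 3.24 ± 0.41. Of 10 genes of apoptotic cell uptake beside Timd4, 1 was higher and 5 lower in CD206+ KO cells on HFD, the bridging protein Mfge8 at -2.09 ± 0.27, and 4 rose and 0 fell on HFD in CD206+ WT cells. Of 10 complement genes beside Vsig4, 2 were higher and 4 lower in CD11c+ KO cells on HFD, with C3 itself up by 3.46 ± 0.38. Of 11 folate genes beside Folr2, 3 were higher and 1 lower in that comparison. Of 7 carbonyl reductases beside Cbr2, 1 was higher and 4 lower there, with Dhrs9 at -3.14 ± 0.28. Of 11 transglutaminase and clotting genes beside F13a1, 4 were higher and 2 lower, and of 17 receptors and factors of macrophage identity 5 were higher and 4 lower.

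Over the 32 libraries the log2 CPM of the members had a positive Pearson's r in all 45 pairs, between 0.239 and 0.973 (median 0.77). No r was tested. These values share the libraries and include the differences between the groups. The part of population, genotype or diet in them was not tested. Cbr2 and Cd209f (0.973) and Cd163 and Cd209b (0.971) were closest, and Timd4 and Cd209b (0.239) farthest apart. After subtracting the group means the median was 0.445 and the range -0.0445 to 0.887, with Folr2 and Cbr2 highest. Mrc1 then had values from -0.0445 with Cd209b to 0.417 with F13a1.

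**Figure D5:**
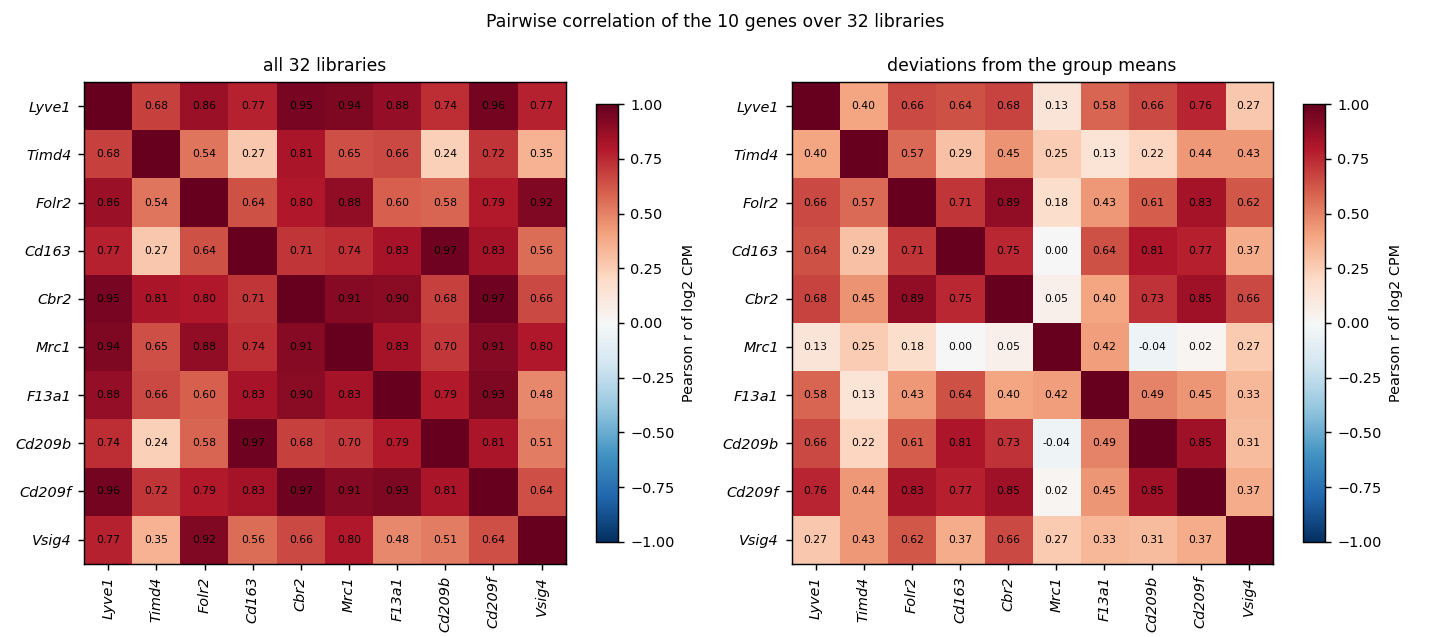
Pearson's r of log2 CPM between the 10 genes over 32 libraries, for the values themselves on the left and for deviations from the group means on the right. Cd163 with Cd209b is dark in both panels, whereas the row of Mrc1 is paler on the right, from -0.0445 to 0.417.

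The 10 genes outside the members whose log2 CPM were most like the members' mean over the 32 libraries were Trpv4 (0.984), A4galt and Hrh1 (0.98 each), C1qtnf1 (0.979), Fcna (0.977), Selenbp1 (0.976), Ltc4s (0.974), Arhgef3 (0.973), Cd209g (0.971) and Cbx6 (0.968), as Pearson's r. For single members the closest gene was Ltc4s for Lyve1 (0.982), Ly6e for Timd4 (0.935), Sepp1 for Folr2 (0.977), P3h2 for Cd163 (0.977), Cd209g for Cbr2 (0.972) and for Cd209f (0.997), Serinc3 for Mrc1 (0.965), Lifr for F13a1 (0.977), Mxra7 for Cd209b (0.952) and Apoe for Vsig4 (0.971). Cd209g shares sequence with Cd209f, as given above.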

How the data were processed

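The 32 libraries were taken as one table of gene counts, raw whole reads per gene, as the authors deposited them. Per the submitters' processing notes, the tools used were TopHat2 2.1.0, Trimmomatic 0.35, SAMtools 0.1.18 and FastQC 0.11.4, and the build was mm10/GRCm38. The sources used here name no counter, annotation or strand setting. Rows naming no gene (5 per library) were left out: reads in no feature were 5.16% to 11.1% and ambiguous reads 0.992% to 1.48% as a share of each library.

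Genes were kept with edgeR's filterByExpr at a minimum count of 10 (13453 genes), scaled by TMM (factors 0.856 to 1.08) and fitted over the 8 groups with edgeR 4.0.16 (R 4.3.3, limma 3.58.1) by the quasi-likelihood test, with Benjamini-Hochberg adjustment over all genes in each of 18 contrasts: 12 of 2 groups and 6 interactions. Every adjusted p is from this test unless DESeq2 1.42.0 is named. CPM used TMM-scaled library sizes, and correlations used log2 CPM with a prior count of 2. The code was tested on simulated counts. Replicate pairs differed beyond sampling noise (chi-square per degree of freedom 10.2 to 61.5 over 48 pairs), so none was taken as one library deposited again.

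Replicate numbers were checked for pairing between CD206+ and CD11c+ libraries of one mouse group. Their deviations from group means correlated above 0.1 in all 4 pairs of KO SD, WT HFD and WT SD, but in KO HFD 2 of 4 fell short (-0.0348 and -0.0488), so 14 of 16 passed. Numbers shared across genotypes or diets did not pair libraries (median 0.0122 over 96 pairs).

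The 10 members and the 24 gene lists (11 of function, 13 of markers of cell types, 3 listed symbols being absent from the tables) were chosen with earlier results of these data known. All members were named in every contrast, and of each list up to 4 called genes with the largest changes; a listed gene that is withheld is not reported here. Alternatives were another normalization (RLE), a stricter filter and none, DESeq2, replicate blocks, fits of the contrast's groups alone, each library left out, and the Cd209 genes summed. After seeing the data, CD11c+ KO HFD replicates 2 and 3 were left out together, and Cd209f was summed with Cd209g.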

Additional observations from a re-analysis of the deposited data

Results flagged for a closer look

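Among the 80 sets of 4 libraries (10 members in 8 groups), 4 held a library far from the other 3 by Dixon's criterion at its 95% critical value, which chance gives in about 1 set in 20. Timd4 had 15.51 CPM in CD206+ WT HFD replicate 3, against 4.42 to 5.44 CPM in the others. Folr2 had 114.2 CPM in CD11c+ KO SD replicate 1, against 55.2 to 61.8 CPM. Cd163 had 48.5 CPM in CD11c+ WT HFD replicate 4, against 68.9 to 72.9 CPM. Vsig4 had 31.15 CPM in CD206+ WT SD replicate 4, against 13.8 to 15.8 CPM.

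Of 60 interactions tested over the members, 24 passed in edgeR's quasi-likelihood test, that is, the effect of 1 factor differed between levels of another. Of all genes, 28.8% passed for genotype by diet in CD11c+ and 11.9% in CD206+ cells. For genotype by population 4.36% passed on HFD and 6.57% on SD, and for diet by population 32.4% in WT and 0% in KO. The 4 members in diet by population of WT were near that share. The 6 interactions reuse the same 8 groups, so these tests are not independent. The KO effect on HFD less that on SD, in CD11c+ cells, was 2.23 for Lyve1, -2.54 for Folr2, 1.82 for Cd163, 1.82 for Cbr2, 2.36 for F13a1, 4.44 for Cd209b, 3.22 for Cd209f and -2.97 for Vsig4 on the log2 scale. In CD206+ cells it was 2.05 for Lyve1, 1.88 for Timd4, 2.30 for Cd163, 1.76 for Cbr2, 1.35 for F13a1, 3.74 for Cd209b and 3.08 for Cd209f. The KO effect in CD206+ less that in CD11c+ cells was 1.85 for Folr2 and 2.29 for Vsig4 on HFD, and -2.65 for Timd4, -1.81 for Folr2 and -0.628 for Mrc1 on SD. The response to HFD in CD206+ less that in CD11c+ cells of WT mice was -4.54 for Folr2, -1.19 for Cd163, -0.857 for Mrc1 and -3.80 for Vsig4. The difference of Mrc1 between populations on SD did not pass without CD206+ KO SD replicate 4 (-0.512) or CD206+ WT SD replicate 4 (-0.528).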

How the results depend on the processing

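Each of the 10 members in each of 18 contrasts gave 180 values per alternative. The side of the threshold held in 180 of 180 under RLE, 179 under the stricter filter, 178 with no filter and 172 under DESeq2. It held in 174 with the replicate block and 73 of 80 with the paired replicate block. With only the groups of the contrast it held in 165 of 179 (1 value was missing, as Cd209b was then filtered out). With 1 library left out, 1835 of 1920 held, 65 lost a call and 20 gained one. With CD11c+ KO HFD replicates 2 and 3 left out, 52 of 60 held. No value called in the main fit or in one of these alternatives changed direction. Among values that held, uncalled ones changed sign in 41 cases with 1 library left out and in 12 without those 2 libraries. Under DESeq2, no filter, the stricter filter and the replicate block 1 uncalled value each changed sign. With all Cd209 genes summed, the sum went the other way from Cd209b in KO against WT on HFD. It was 1.53 in CD11c+ (edgeR, adjusted p = 0.00814) and 0.892 in CD206+ cells (adjusted p = 0.155), where it did not pass. The sum holds genes at higher levels, such as Cd209f (176 CPM against 8.47 CPM of Cd209b in CD206+ KO cells on HFD). It is therefore no measure of Cd209b alone. Counts of members called that moved by over 1.5 times were KO against WT in CD206+ cells on HFD (3 with DESeq2, 5 in edgeR), the diets in CD11c+ KO cells (2 with DESeq2, 0 in edgeR), diet by population in WT (7 with the replicate block, 8 with the paired replicate block and 8 with only its groups, 4 without) and genotype by diet in CD11c+ cells (3 without the 2 libraries, 8 with them). The cause was not tested, beyond the smaller number of samples where libraries were left out. Leaving out 1 library gave 0 to 4 members for the diets in CD11c+ KO cells, 3 to 4 for KO against WT in CD206+ cells on HFD and 3 to 7 for diet by population in WT. The paired replicate block gave 1209 genes against 586 for genotype by population on HFD and 1612 against 884 on SD. For HFD against SD, DESeq2 called 51 genes against 1 in CD11c+ KO cells and 18 against 0 in CD206+ KO cells. The replicate block, which takes libraries of one number as a set, added the calls of Cbr2 in CD11c+ cells on SD (0.968, adjusted p = 0.0382) and Lyve1 in CD206+ cells on HFD (1.08, adjusted p = 0.0486) and SD (-1.14, adjusted p = 0.0354), all KO against WT. Numbers shared across genotypes or diets did not pair libraries, as given above, so the data did not bear out this block for those comparisons. The paired replicate block added Folr2 between populations in WT mice on HFD (0.633, adjusted p = 0.0472), and Cd163 (1.09, adjusted p = 0.0379) and Cbr2 (-1.52, adjusted p = 0.034) in genotype by population on HFD and SD. The Cd163 call uses KO mice on HFD, where replicates 1 and 2 did not pair (-0.0348 and -0.0488). Apart from diet by population in WT, neither block changed another call of a member. Low counts limit Cd209b and Vsig4 in CD11c+ cells: Cd209b had 0 counts in 1 KO HFD and 1 KO SD library, and Vsig4 in 1 WT SD library.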
